A study of Mus musculus with 3 samples.

Results

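The 10 genes described here act in protein folding, translocation or degradation at the endoplasmic reticulum (ER). Known targets of the transcription factors XBP1 and ATF6, they are Dnajb9, Pdia6, Hyou1, Dnajc3, Serp1, Sdf2l1, Manf, Calr, Hspa5 and Herpud1. They were taken by symbol from the 32285 genes of the count tables, and all 10 were found. The data were droplet single-nucleus RNA sequencing libraries of mouse lacrimal gland, made with the 10x Genomics 3' version 3 kit. There were 3 libraries, 1 per group: mice with dry eye from scopolamine plus dry stress that were also given tamsulosin (the tamsulosin library), mice with the same dry eye treatment and no tamsulosin (the scopolamine library), and normal control mice (the control library). Tamsulosin is a blocker of alpha-1 adrenergic receptors, and scopolamine one of muscarinic acetylcholine receptors. The dry eye treatment is common to the tamsulosin and scopolamine libraries, so comparing these libraries addresses how glands given tamsulosin differed within the model. Strain, age, sex, doses, times and the number of animals behind a library are not given in the sources used here, and the protocol also mentions a sort for a red fluorescent protein whose use for these libraries is not settled.

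The ER is where secreted and membrane proteins are folded. Acinar cells of the lacrimal gland release large amounts of tear proteins and therefore hold much rough ER. When unfolded proteins build up, the sensors IRE1, ATF6 and PERK start the unfolded protein response: IRE1 has the Xbp1 mRNA spliced to a form that codes for an active factor, ATF6 is cut in the Golgi to release its active part, and PERK slows translation and raises ATF4. XBP1 and ATF6 switch on chaperones, disulfide isomerases, translocation factors and degradation factors, among them the 10 genes here. Splicing of Xbp1 and cleavage of ATF6 are not read by these counts.

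XBP1 and ATF6, together with NF-Y, bind short promoter elements that were first studied at genes such as Hspa5, and the stretches that hold them are shown here because they are the direct link between these genes and the factors. The ER stress response element (ERSE), spelled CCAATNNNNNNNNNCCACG, and ERSE-II, ATTGG and CCACG with 1 base between them, were searched on both strands of RefSeq promoter windows of GRCm38.p6, from 250 bases before to 50 after each gene start. Of the 10 genes 8 had a window. ERSE was present in 4 of these 8 and in 39 of all 32851 windows (0.119%), and ERSE-II in 1 of 8 and in 12 of all windows (0.0365%). None of these 8 windows held both, although the letters CCACG are common to both motifs. The 5 stretches with a match follow, each on its gene's strand, with the matched letters in capitals.
Hspa5 (chr2:34771995-34772073, plus strand): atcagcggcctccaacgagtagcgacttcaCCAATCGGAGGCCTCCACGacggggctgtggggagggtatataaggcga
Calr (chr8:84847045-84847123, minus strand): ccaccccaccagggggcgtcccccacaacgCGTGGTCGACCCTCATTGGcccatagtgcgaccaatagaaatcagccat
Pdia6 (chr12:17266461-17266539, plus strand): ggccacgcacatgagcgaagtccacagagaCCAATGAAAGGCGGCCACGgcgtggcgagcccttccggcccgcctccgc
Dnajc3 (chr14:118937797-118937875, plus strand): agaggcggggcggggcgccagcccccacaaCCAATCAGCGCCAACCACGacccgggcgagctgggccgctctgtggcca
Herpud1 (chr8:94386347-94386417, plus strand): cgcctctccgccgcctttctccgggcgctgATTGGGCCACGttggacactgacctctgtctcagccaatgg
Positions are counted from the RefSeq start. The GENCODE gene model of Hspa5 printed below begins further upstream, so its stretch lies inside that model. The ERSE match began 65 bases before the RefSeq start in Hspa5, 98 in Pdia6 and 105 in Dnajc3. In Calr it lay on the opposite strand and began 162 bases before the start. The ERSE-II match of Herpud1 began 52 bases before the start. The windows of Dnajb9, Serp1 and Sdf2l1 held neither string of letters, and Manf and Hyou1 had no window in the table used here.

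After filtering, the tamsulosin library held 10813 nuclei with a median of 3359 unique molecular identifiers (UMIs), the scopolamine library 9202 with 1743, and the control library 6773 with 2326. The deposited matrices held 57969348, 35237256 and 33500727 UMIs in that order of libraries. The libraries shared few barcodes, between 22 and 35 for each pair. Clusters were named from marker genes, and the acinar-like class, partly a remainder class, had 2604 tamsulosin, 6065 scopolamine and 5170 control nuclei. Its markers included the muscarinic receptor gene Chrm3 at 3132, 3504 and 3749 CPM (UMIs per 1e6 UMIs of the class) and the water channel gene Aqp5 at 81.4, 82.1 and 62.2 CPM. Other acinar markers differed widely: the lipase-related gene Pnliprp1 was at 46.6, 63.6 and 1432 CPM, the odorant-binding protein gene Obp1a at 64135, 53951 and 15242, the secreted peptide gene Esp16 at 676, 666 and 86.1, and the lactoperoxidase gene Lpo at 371, 193 and 627. Each library filled its own acinar-like clusters: cluster 4 had 1842 tamsulosin, 182 scopolamine and 1 control nuclei. Cluster 0 had 24, 3902 and 8 in that order, and cluster 1 had 0, 20 and 3810. With 1 library per group no test was possible. Brackets hold 95% intervals (exact Poisson for CPM, conditional binomial for ratios of CPM, Clopper-Pearson for shares), which cover counting error only, since the number of UMIs says nothing of the spread between animals or preparations.

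Against control, the scopolamine library had more Calr, Manf and Hspa5 RNA and less Herpud1 RNA in acinar-like nuclei, while the other measured members lay closer to the bulk of genes. Calr was 1.83-fold higher (1.70 to 1.96), Manf 1.69-fold higher (1.53 to 1.87) and Hspa5 1.25-fold higher (1.20 to 1.30). Herpud1 was 2.25-fold lower (2.15 to 2.35). Because abundant secretory transcripts take different shares of each library, the log2 ratio of CPM plus 5 was also set against its median over all genes averaging 20 CPM or more in the class, and a gene was counted where it lay at least 1.5-fold from that median. The median was -0.30 for this comparison. Of the 9 members above 20 CPM, 3 were counted as higher (Calr, Manf and Hspa5) and 1 as lower (Herpud1), where 7.19% of all 5729 genes were higher and 3.68% lower. The members' median relative log2 ratio was 0.31, where that of all genes is 0 by construction, and it was 0.02 when the class median was not subtracted.

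**Figure D1:**
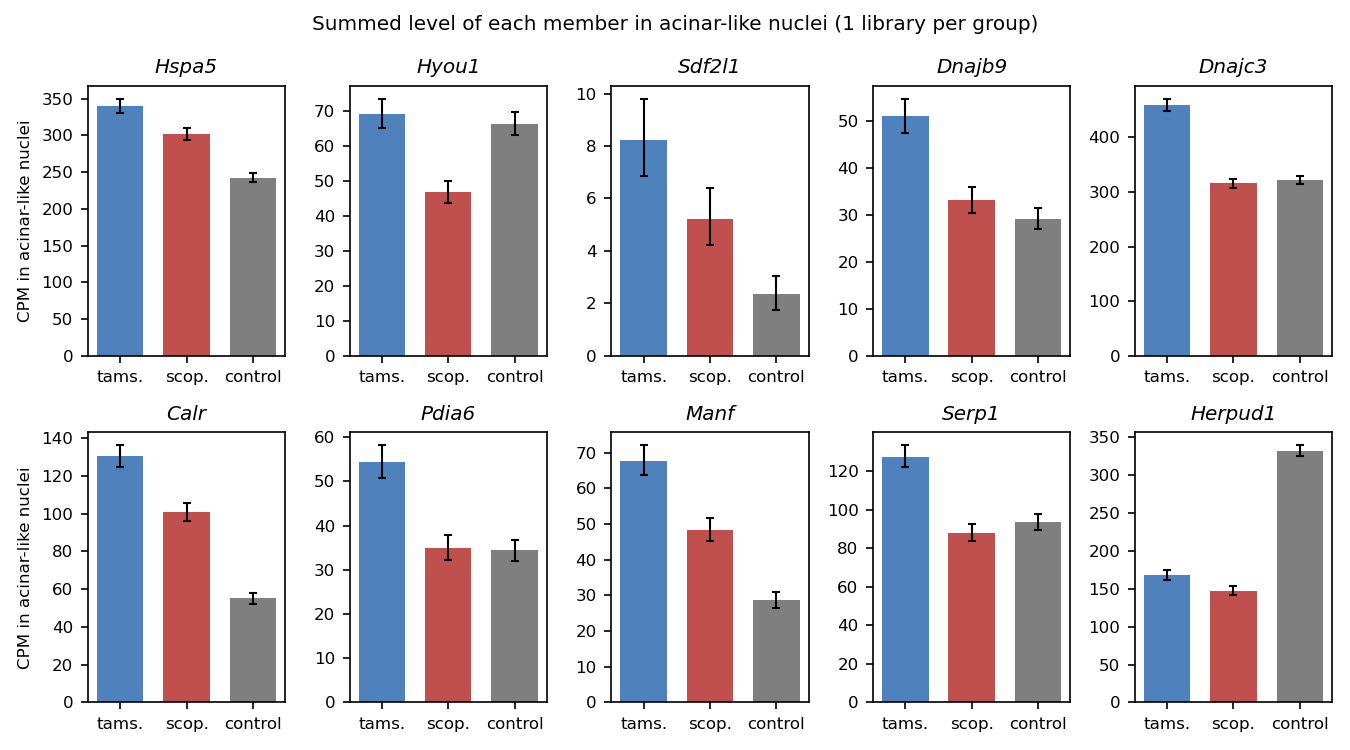
Bars show the level of each gene in acinar-like nuclei as CPM (linear axis from 0, a separate scale for each gene) in the tamsulosin (tams.), scopolamine (scop.) and control libraries; error bars are exact Poisson 95% intervals for counting error. Herpud1 is at 168, 147 and 332 CPM, while Calr runs the other way at 130, 101 and 55.1 CPM.

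Gene positions below are of GENCODE on GRCm38. Hspa5 (BiP, GRP78; ENSMUSG00000026864, chromosome 2 from 34771970 to 34777547 on the plus strand) is the main HSP70-type chaperone of the ER and holds the stress sensors inactive in unstressed cells. Its level in acinar-like nuclei was 340 CPM (331 to 350) in the tamsulosin, 302 (294 to 310) in the scopolamine and 242 (236 to 249) in the control library. The intervals did not overlap between any pair of libraries. The relative log2 ratio of scopolamine to control was 0.61, just past the limit of 1.5-fold, and 0.31 without subtraction of the class median. Hyou1 (GRP170; ENSMUSG00000032115, chromosome 9 from 44379490 to 44392369 on the plus strand), a large HSP70-type protein that exchanges the nucleotide of BiP, was at 69.3 CPM (65.1 to 73.6), 46.9 (43.7 to 50.2) and 66.5 (63.3 to 69.9) in the same libraries. It was thus lower in the scopolamine library than in control, 1.42-fold (1.30 to 1.54), and the tamsulosin and control intervals overlapped. Its relative log2 ratio of scopolamine to control was -0.17 and became 0.14 in nuclei thinned to 1000 UMIs each.

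The J-domain proteins recruit clients to BiP and set off its ATP cycle. Dnajb9 (ERdj4; ENSMUSG00000014905, chromosome 12 from 44205559 to 44210326 on the minus strand), which also helps BiP to repress IRE1, was at 50.9 CPM (47.4 to 54.6) in the tamsulosin, 33.1 (30.5 to 35.9) in the scopolamine and 29.1 (27.0 to 31.4) in the control library. Dnajc3 (p58IPK; ENSMUSG00000022136, chromosome 14 from 118937976 to 118981697 on the plus strand), known as an inhibitor of PERK and as an ER co-chaperone, was at 460 (449 to 470), 316 (308 to 324) and 323 (315 to 330) CPM. Both genes were highest in the tamsulosin library, and for each the scopolamine and control intervals overlapped. Sdf2l1 (ENSMUSG00000022769, chromosome 16 from 17130138 to 17132383 on the minus strand), a partner of ER J-domain proteins, was the member below the filter, at 8.22 (6.84 to 9.80), 5.23 (4.22 to 6.41) and 2.34 (1.77 to 3.04) CPM. These values rest on 125, 93 and 56 UMIs. Its ratio of scopolamine to control was 2.24 (1.59 to 3.17), with no weight in the counts above.

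Calr (calreticulin; ENSMUSG00000003814, chromosome 8 from 84841850 to 84846934 on the minus strand) is the lectin chaperone that binds monoglucosylated glycoproteins and calcium in the ER lumen. It was at 130 CPM (125 to 136) in the tamsulosin, 101 (96.0 to 105) in the scopolamine and 55.1 (52.2 to 58.2) in the control library. All 3 intervals were apart, with control lowest. In nuclei thinned to 1000 UMIs, 12.3% (11.1 to 13.6) of tamsulosin, 10.0% (9.26 to 10.9) of scopolamine and 5.67% (5.05 to 6.33) of control acinar-like nuclei held a Calr UMI. Without thinning these shares were 43.6, 21.02 and 18.9%, at median depths of 4114, 1241 and 2122 UMIs, and 671 shallower scopolamine nuclei dropped out of the thinned set. The thinned shares run in the order of the CPM values.

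Pdia6 (P5; ENSMUSG00000020571, chromosome 12 from 17266545 to 17284770 on the plus strand), a disulfide isomerase that also binds BiP, was at 54.3 CPM (50.7 to 58.2) in the tamsulosin, 34.9 (32.2 to 37.8) in the scopolamine and 34.4 (32.1 to 36.8) in the control library. Scopolamine and control did not differ beyond counting error, with a ratio of 1.02 (0.91 to 1.13). Manf (ENSMUSG00000032575, chromosome 9 from 106838312 to 106891979 on the minus strand), a small ER-resident and secreted factor that keeps BiP bound to its clients, was at 67.8 (63.7 to 72.1), 48.3 (45.2 to 51.7) and 28.6 (26.5 to 30.8) CPM. All 3 Manf intervals were apart, in the same order of libraries as for Calr. The Manf gene model overlaps Rbm15b on the same strand and Dcaf1 on the other, and reads of overlapping genes cannot be told apart where the counting rule is not given.

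Serp1 (RAMP4; ENSMUSG00000027808, chromosome 3 from 58519817 to 58525892 on the minus strand) is a small protein bound to the Sec61 translocon that stabilises new membrane proteins. Its level was 127 CPM (122 to 133) in the tamsulosin, 88.0 (83.6 to 92.4) in the scopolamine and 93.5 (89.6 to 97.4) in the control library. The relative log2 ratios of scopolamine to control were 0.21 for Serp1 and 0.27 for Dnajc3, but without subtraction of the class median they were -0.08 and -0.03, so neither gene has a settled direction. Serp1 overlaps Eif2a, Pdia6 overlaps Atp6v1c2 and Herpud1 overlaps Gm15890 on the opposite strand.

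Herpud1 (HERP; ENSMUSG00000031770, chromosome 8 from 94386438 to 94395377 on the plus strand) is a membrane protein of the ER-associated degradation (ERAD) complex, which passes misfolded proteins to the proteasome, and its gene also answers to ATF4. It was at 168 CPM (162 to 175) in the tamsulosin, 147 (142 to 153) in the scopolamine and 332 (325 to 339) in the control library. Both dry eye libraries lay far below control, and the tamsulosin value lay above the scopolamine one by 1.14-fold (1.08 to 1.21). The share of thinned acinar-like nuclei with a Herpud1 UMI was 13.9% (12.6 to 15.3) in the tamsulosin, 12.4% (11.5 to 13.3) in the scopolamine and 25.0% (23.8 to 26.2) in the control library. Herpud1 holds the ERSE-II match printed above. Of the 4 genes with an ERSE match, the relative log2 ratio of scopolamine to control was 0.61 for Hspa5, 1.11 for Calr, 0.31 for Pdia6 and 0.27 for Dnajc3. For Pdia6 and Dnajc3 the CPM intervals of these libraries overlapped. Of the genes whose windows held neither motif, the ratio was 0.45 for Dnajb9, 0.77 for the sparse Sdf2l1 and 0.21 for Serp1. A link between motif and direction was not tested.

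Most related genes of the same comparison, scopolamine against control, were not past 1.5-fold, and the counts below are read beside the shares of all genes given above (7.19% higher and 3.68% lower). Among the sensors and factors of the response, 0 of 9 measured genes were higher and 1 was lower: Atf6, at 159 CPM in the scopolamine and 369 in the control library (2.32-fold lower). In the list of other ER chaperones, 2 of 12 were higher and 0 lower, Hsp90b1 (GRP94) at 257 and 197 CPM and the prolyl isomerase Ppib at 45.7 and 34.7 CPM. Of 11 disulfide isomerases and oxidases 1 was lower, the ER oxidase Ero1lb, at 355 and 707 CPM. Of 20 ERAD genes 2 were lower: Derl3, a derlin, at 44.0 and 102 CPM, and Edem2, which trims mannose on misfolded glycoproteins, at 191 and 363 CPM.

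Of 21 translocon and signal peptide genes 1 was higher, Ssr4 of the translocon-associated complex, at 46.8 CPM in the scopolamine and 36.8 in the control library. Of 14 N-glycan genes 2 were higher, the oligosaccharyltransferase subunit Ddost at 25.9 and 14.7 CPM and the mannosyltransferase Alg2 at 33.0 and 24.5 CPM. No gene of 20 in the ER to Golgi coat list was past 1.5-fold. Of 4 measured genes of the PERK and ATF4 branch, Asns (asparagine synthetase) was 4.80-fold lower (13.1 and 62.6 CPM), and Nupr1, a stress-inducible chromatin factor, was 1.92-fold higher (402 and 209 CPM). The median relative log2 ratio was -0.11 for sensors, 0.10 for other chaperones, -0.05 for disulfide enzymes, -0.09 for ERAD, 0.14 for the translocon, 0.28 for N-glycan transfer -0.05 for the coat and -0.24 for the 4 genes of the PERK and ATF4 branch, against 0.31 for the 9 measured members. Without subtraction of the class median, counts of higher genes were 1 in N-glycan transfer and 1 in the PERK and ATF4 branch and 0 in the other lists. Those of lower genes were then 7 for ERAD, 4 for the coat, 3 for disulfide enzymes, 2 each for sensors, the translocon and the PERK and ATF4 branch, and 1 for other chaperones. Leaving out the subtraction shifts every log2 ratio by the class median, here -0.30. The share of all genes past 1.5-fold on that scale was not computed for any comparison or class. Counts without subtraction can therefore not be read beside the shares of 7.19% and 3.68%.

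**Figure D2:**
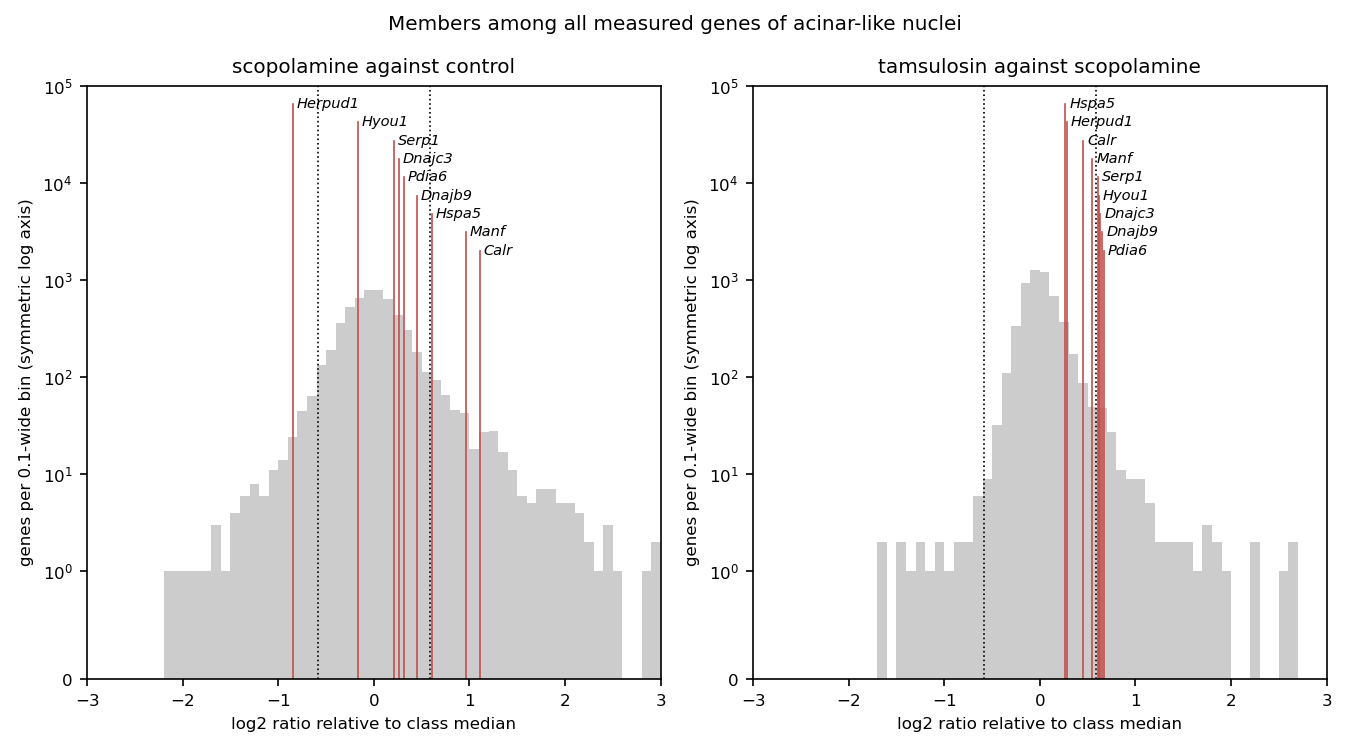
Grey bars count all genes averaging 20 CPM or more in acinar-like nuclei by their log2 ratio relative to the class median (x axis; bins of 0.1; symmetric log y axis; genes beyond the limits of the x axis are not drawn), red lines mark the 9 members above that level, and dotted lines mark 1.5-fold. For scopolamine against control the members spread between Herpud1 at -0.85 and Calr at 1.11, and for tamsulosin against scopolamine all lie above 0, between 0.27 and 0.67.

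In the tamsulosin library all 10 genes had a higher level than in the scopolamine library in acinar-like nuclei, by 1.13-fold to 1.57-fold in CPM. Every ratio's counting interval lay above 1. With sums of 15203297 and 17770959 UMIs such intervals are narrow. The share of all genes with an interval above 1 was not computed, so this count does not set the members apart from other genes. The ratio was 1.55 (1.40 to 1.73) for Pdia6, 1.54 (1.38 to 1.72) for Dnajb9, 1.48 (1.35 to 1.62) for Hyou1, 1.45 (1.40 to 1.51) for Dnajc3 and 1.45 (1.36 to 1.55) for Serp1. It was 1.40 (1.28 to 1.54) for Manf, 1.29 (1.21 to 1.38) for Calr and 1.13 (1.08 to 1.17) for Hspa5, and 1.57 (1.19 to 2.08) for the sparse Sdf2l1, whose relative log2 ratio turned to -0.45 in thinned nuclei. This comparison and the one above share the scopolamine library.

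Relative to a class median of -0.10, 5 of the 9 members above 20 CPM were at least 1.5-fold higher (Pdia6, Dnajb9, Dnajc3, Hyou1 and Serp1) and 0 lower, where 2.53% of 5406 genes were higher and 0.388% lower. Their relative log2 ratios lay between 0.61 and 0.67, close to the limit. The count was therefore unstable: it was 0 without subtraction of the class median, 1 with the median taken over all genes with a UMI, 1 in clusters with at least 50 nuclei in both libraries, and 3 in thinned nuclei. Clusters with at least 50 nuclei in both libraries came to cluster 4 alone. There the relative log2 ratio was 0.01 for Calr, 0.07 for Hspa5 and 0.11 for Pdia6, against 0.46, 0.27 and 0.67 over all acinar-like nuclei, while Dnajb9 was at 0.95 and Manf at 0.45. The median over the 9 members was 0.61. Lists of related genes had medians of 0.18 (9 sensors and factors), 0.25 (13 other chaperones), 0.33 (10 disulfide enzymes), 0.23 (20 ERAD genes), 0.33 (21 translocon genes), 0.27 (16 N-glycan genes), 0.27 (20 coat genes) and 0.05 (3 genes of the PERK and ATF4 branch).

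Few genes of those lists were past 1.5-fold in this comparison, 3 higher and 1 lower. They were Ppib at 74.0 CPM in the tamsulosin and 45.7 in the scopolamine library, Ssr4 at 68.3 and 46.8 CPM, and the oligosaccharyltransferase subunit Krtcap2 at 36.8 and 22.7 CPM, all higher. Nupr1 was lower, at 217 and 402 CPM. No sensor, disulfide, ERAD or coat gene was counted in either direction. The tamsulosin acinar-like nuclei were deeper (median 4114 UMIs, against 1241 in scopolamine), and in nuclei of at least 4000 UMIs and of at least 1600 UMIs every one of the 10 genes kept its sign.

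The tamsulosin library set against control shares a library with each of the comparisons above and so is no separate evidence. Calr was 2.36-fold higher (2.20 to 2.54), Manf 2.37-fold higher (2.15 to 2.62), Dnajb9 1.75-fold higher (1.58 to 1.94) and Pdia6 1.58-fold higher (1.43 to 1.74). Dnajc3, Hspa5 and Serp1 were 1.42-, 1.40- and 1.36-fold higher. Hyou1 did not differ beyond counting error, with a ratio of 1.04 (0.96 to 1.13). Herpud1 was 1.97-fold lower (1.89 to 2.06). Relative to a class median of -0.40, 7 of 9 members were higher and 0 lower, where 8.93% of 5678 genes were higher and 3.68% lower. Without that subtraction 4 were higher and 1, Herpud1, lower, and no share of all genes was computed on that scale.

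Beside the members, 9 of 16 N-glycan genes and 7 of 21 translocon genes were higher in the tamsulosin library than in control and 0 lower, but without subtraction of the class median 2 N-glycan genes were higher and 0 lower, and 1 translocon gene was higher and 2 lower. Krtcap2 was at 36.8 and 14.8 CPM, the oligosaccharyltransferase subunit Rpn1 at 125 and 83.7 CPM and the translocon-associated Ssr2 at 33.0 and 21.4 CPM. Of 12 other chaperones 3 were higher (1 without subtraction), with Ppib at 74.0 and 34.7 CPM and Hsp90b1 at 279 and 197 CPM. Of 11 disulfide enzymes 2 were higher (0 without subtraction), Pdia4 at 36.9 and 24.8 CPM and Pdia3 at 191 and 160 CPM. Of 9 sensors and factors, Bhlha15 (MIST1), a factor of secretory cells, was higher only with subtraction, at 73.1 and 51.3 CPM. Atf6 was lower at 169 and 369 CPM, and without subtraction 4 of the 9 were lower. Asns was 4.31-fold lower, at 14.5 and 62.6 CPM. Without subtraction 2 of the 4 measured genes of the PERK and ATF4 branch were lower. Of 20 ERAD genes none was past 1.5-fold with subtraction, and 5 were lower without it. Of 20 coat genes 2, Surf4 and Tmed2, were higher with subtraction and 0 without it, where 2 were lower. As above, counts without subtraction have no share of all genes beside them.

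Beyond acinar-like nuclei, the differences of Calr, Manf and Herpud1 between scopolamine and control had the same direction in all 6 classes with at least 100 nuclei in each library. The duct-like class is the least certain of these in the control library: 370 of its 404 control nuclei lay in cluster 17, and of these 370, between 366 and 370 were named acinar-like in each of 3 other clusterings, while most duct-like nuclei of the tamsulosin and scopolamine libraries lay in clusters 3 and 5. Duct-like values against control may therefore set unlike nuclei side by side, and each count over 6 classes below includes that class. Duct-like scopolamine nuclei are uncertain too: of 680, 297 lay in cluster 5. Of these 297, 259 were named acinar-like with doublets kept, and 241 were named neither acinar-like nor duct-like at resolution 2. In the clustering of nuclei with at least 1000 UMIs and 500 genes, 285 stayed duct-like. Calr was 1.70- to 2.06-fold higher, and its counting interval lay above 1 in 6 of 6 classes. In macrophage-like nuclei it was at 107 CPM in the tamsulosin, 73.5 in the scopolamine and 42.1 in the control library, and in duct-like nuclei at 120, 76.5 and 44.3 CPM. Herpud1 had a ratio between 0.34 and 0.50, with the interval below 1 in 6 of 6 classes. In macrophage-like nuclei it was at 100.4, 95.4 and 285 CPM and in fibroblast-like nuclei at 93.1, 113 and 281 CPM.

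Manf was higher in scopolamine than in control by 1.40- to 2.50-fold over the 6 classes, with the interval above 1 in 3. Hspa5 had relative log2 ratios between 0.27 (fibroblast-like) and 1.00 (myoepithelial-like). Hyou1 had a CPM ratio between 0.48 and 0.70, with the interval below 1 in 4 of 6 classes. In macrophage-like nuclei Hyou1 was at 28.1 CPM in the tamsulosin, 35.1 in the scopolamine and 67.9 in the control library, so there the tamsulosin value was not above the scopolamine one. Serp1 in macrophage-like nuclei was at 125, 59.0 and 88.0 CPM, lowest in the scopolamine library. Dnajc3 had relative log2 ratios between -0.15 (duct-like) and 0.43 (myoepithelial-like).

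Counts of members past 1.5-fold in these classes are read beside the share of all genes past it. For scopolamine against control, 3 of 8 measured members were higher and 1 lower in duct-like nuclei (all genes 8.26% and 4.06%). In myoepithelial-like nuclei 4 of 8 were higher and 1 lower (10.2% and 8.47%), and in fibroblast-like nuclei 2 of 9 and 2 of 9 (9.73% and 7.4%). In macrophage-like nuclei 2 of 8 were higher and 2 lower (16.1% and 13.6%), and in T or NK-like nuclei 5 of 9 and 1 of 9 (18.7% and 15.9%). The count in T or NK-like nuclei, the class with the fewest nuclei, stands beside the largest shares of all genes. Without subtraction of the class median the counts of higher and lower members were 3 and 2 in T or NK-like, 2 and 2 in duct-like, 2 and 3 in myoepithelial-like, 1 and 2 in fibroblast-like and 2 and 2 in macrophage-like nuclei. These last counts have no share of all genes beside them.

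For tamsulosin against scopolamine, 6 of 9 measured members were higher and 0 lower in duct-like nuclei (all genes 5.95% and 2.83%). The limit given above for duct-like scopolamine nuclei holds for this count. In myoepithelial-like nuclei 4 of 8 were higher (7.37% and 3.06% for all genes, higher and lower), and in fibroblast-like nuclei 5 of 9 (16.2% and 10.8%). In macrophage-like nuclei 3 of 9 were higher (5.89% and 3.21%), and in T or NK-like nuclei 2 of 9 (11.1% and 6.63%). No member was counted as lower in any of the 6 classes. Of the 10 genes, 9 had a relative log2 ratio above 0 in all 6 classes, and Hyou1 in 5 of 6. How many of all genes keep 1 direction over the 6 classes, in relative or CPM ratio, was not computed for either comparison. The classes also share their libraries, so they are not separate evidence. In CPM, 5 of the 10 genes (Serp1, Sdf2l1, Manf, Calr and Hspa5) had a ratio above 1 in all 6 classes, and the lowest ratios were 0.80 for Hyou1, 0.82 for Herpud1, 0.88 for Dnajb9, 0.96 for Pdia6 and 1.00 for Dnajc3, whose ratio was above 1 in 5 of 6. Without subtraction of the class median the counts of higher members were 2 in duct-like, 2 in myoepithelial-like, 3 in fibroblast-like, 1 in macrophage-like and 1 in T or NK-like nuclei, with 0 lower in each. No share of all genes was computed for these counts. Relative ratios of tamsulosin to control over the 6 classes ran from 1.52 to 1.97 for Manf, from 1.45 to 1.95 for Calr and from -1.06 to -0.30 for Herpud1.

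**Figure D3:**
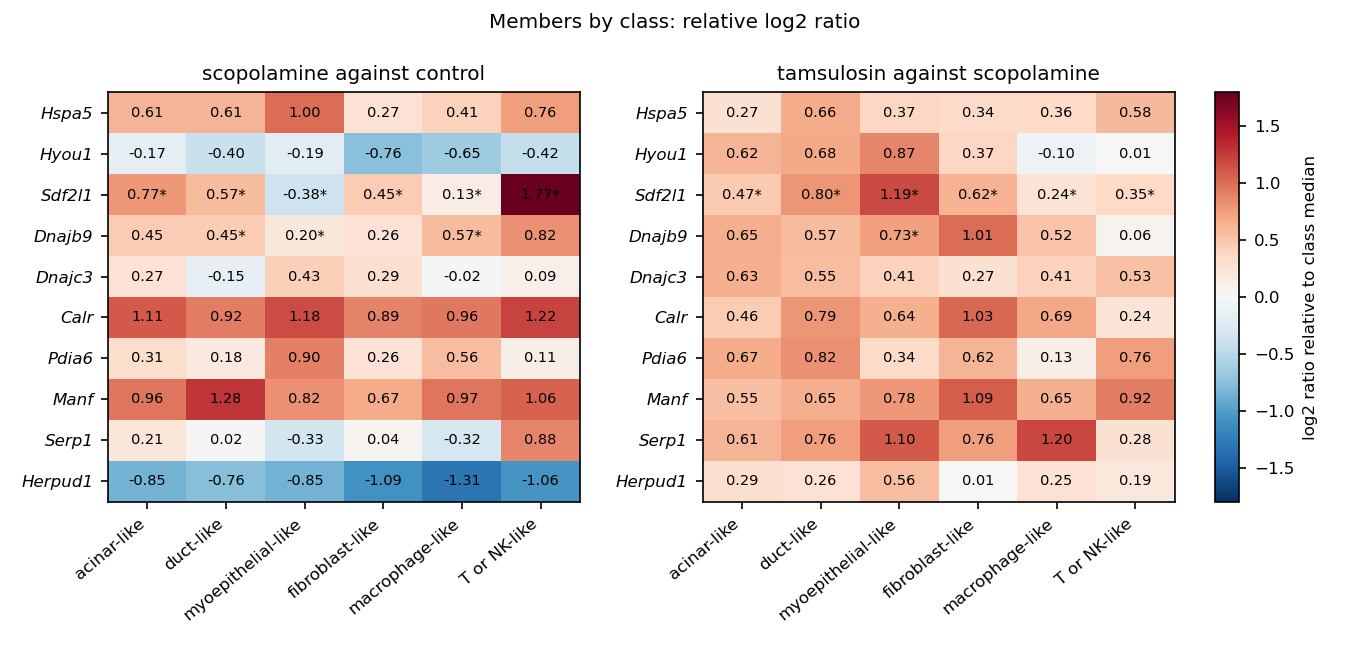
Each cell gives the log2 ratio relative to the class median (colour scale and number) of 1 gene (rows) in 1 class (columns), for scopolamine against control and for tamsulosin against scopolamine; an asterisk marks a gene under a mean of 20 CPM there. Calr and Manf are above 0 and Herpud1 below 0 in all 6 classes of the first panel, and in the second panel only Hyou1 in macrophage-like nuclei is below 0.

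Within a library, Dnajc3, Hspa5 and Herpud1 were higher in acinar-like nuclei than in each of the 5 other compared classes. This held in all 3 libraries, with every counting interval above 1. For duct-like control and scopolamine nuclei the limits above hold here too. Dnajc3 was 2.53-fold higher (2.42 to 2.64) than in duct-like nuclei in the tamsulosin, 2.28-fold (2.03 to 2.56) in the scopolamine and 1.82-fold (1.62 to 2.04) in the control library. Hspa5 was 1.48-, 1.86- and 2.01-fold higher than in duct-like nuclei in that order. Calr, by contrast, was near the acinar-like level in myoepithelial-like nuclei, at ratios of 1.01 (0.86 to 1.19), 1.02 (0.85 to 1.22) and 0.99 (0.75 to 1.32). Pdia6 did not exceed the duct-like level beyond counting error in any library. Its acinar-like to duct-like ratios were 1.07 (0.97 to 1.18), 1.14 (0.89 to 1.48) and 1.11 (0.85 to 1.48).

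Plasma-like nuclei, from antibody-secreting cells that depend on XBP1, were few (64 tamsulosin, 49 scopolamine and 49 control nuclei). In them Herpud1 was at 273 CPM (207 to 353) in the tamsulosin, 220 (141 to 328) in the scopolamine and 396 (305 to 506) in the control library. The intervals of all 3 pairs of libraries overlapped. Hspa5 was at 485 (396 to 588), 275 (186 to 393) and 291 (214 to 387) CPM. Pdia6 was at 108 (68.7 to 163), 128 (70.2 to 216) and 43.3 (17.4 to 89.3) CPM, from 23, 14 and 7 UMIs. Acinar-like Pdia6 lay below the plasma-like level in the tamsulosin library (ratio 0.50, 0.33 to 0.80) and in the scopolamine library (0.27, 0.16 to 0.50).

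Within each library the acinar-like clusters kept the order seen between libraries for Herpud1 and Calr against control. In the tamsulosin library Herpud1 was at 172 and 140 CPM and Calr at 129 and 144 CPM in clusters 4 and 12. In the scopolamine library Herpud1 was at 125, 160 and 151 CPM in clusters 0, 6 and 16, and Calr at 117, 89.5 and 98.1 CPM. In the control library Herpud1 was at 313, 345 and 356 CPM in clusters 1, 9 and 15, and Calr at 58.7, 51.1 and 62.3 CPM. Every control cluster was thus above every tamsulosin and scopolamine cluster named here in Herpud1 and below them in Calr. Clusters 4, 6 and 9 had medians of 5241, 5482 and 10442 UMIs, and clusters 12, 16 and 15 those high in Car6, a secreted carbonic anhydrase gene. In the tamsulosin library the Car6-high cluster 12 had 36.8 CPM (28.8 to 46.4) of Hyou1, against 75.2 (70.5 to 80.2) in cluster 4, and 352 against 475 CPM of Dnajc3. Pdia6 ran the other way there, at 74.7 (63.1 to 87.8) in cluster 12 against 50.8 (46.9 to 54.9) CPM in cluster 4.

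Transcripts found outside the cells that make them, a sign of free RNA, differed between the libraries. The secreted proteins Mucl2, Scgb1b2 and Scgb2b2 together took 16.4% of UMIs in tamsulosin, 13.2% in scopolamine and 3.42% in control acinar-like nuclei. Macrophage-like nuclei, which should not make them, had shares of 18.4, 12.3 and 3.08%. The mitochondrial share in acinar-like nuclei was 0.419, 0.216 and 0.146% and the share of ribosomal protein genes 0.698, 0.496 and 0.366%. Markers of other cell types in acinar-like nuclei did not follow 1 order: 8 plasma markers summed to 126, 44.8 and 58.6 CPM with none at 0, and 11 macrophage markers to 60.1, 88.2 and 137 CPM with none at 0. The part of free RNA and of these shares in the members' differences was not tested.

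Low-complexity barcodes, in which those secreted proteins took 43.5% of tamsulosin UMIs (2907 barcodes) and 51.4% of scopolamine UMIs (500 barcodes), held little nuclear RNA. The nuclear transcript Malat1 took 0.637 and 0.339% there, against 2.67 and 3.86% in acinar-like nuclei. Calr was at 138 and 99.7 CPM in these barcodes, against 130 and 101 CPM in acinar-like nuclei of the same libraries. Hspa5 was at 329 and 311 CPM, against 340 and 302 CPM, and Pdia6 at 53.5 and 34.6 CPM, against 54.3 and 34.9 CPM. In these libraries these 3 genes did not differ between the kinds of barcode beyond counting error. Only 41 control barcodes were low complexity, with a median mitochondrial share of 3.39%. In them the ratios to acinar-like nuclei were 2.64 (2.21 to 3.12) for Hspa5, 1.69 (1.03 to 2.62) for Calr and 1.35 (0.65 to 2.50) for Pdia6.

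In the tamsulosin and scopolamine libraries the other members were lower in low-complexity barcodes, except the sparse Sdf2l1. Its ratios to acinar-like nuclei were 1.63 (1.27 to 2.08) in tamsulosin and 1.51 (0.97 to 2.28) in scopolamine. Herpud1 was at 76.5 CPM in tamsulosin and 25.4 in scopolamine low-complexity barcodes, ratios of 0.45 (0.42 to 0.49) and 0.17 (0.14 to 0.21) to acinar-like nuclei. Dnajb9 had ratios of 0.45 (0.39 to 0.52) and 0.27 (0.19 to 0.38), and Dnajc3 of 0.49 (0.47 to 0.51) and 0.55 (0.51 to 0.60). Serp1 was at 0.88 (0.82 to 0.95) in tamsulosin and 0.33 (0.27 to 0.40) in scopolamine. The low-complexity barcodes of these libraries lay mostly in different clusters, 2288 of 2907 in cluster 2 for tamsulosin (median 329 genes at 1000 UMIs) and 474 of 500 in cluster 7 for scopolamine (110 genes), so the values of the libraries may be of unlike barcodes. Manf had ratios of 0.86 (0.78 to 0.95) in tamsulosin and 0.69 (0.57 to 0.83) in scopolamine.

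**Figure D4:**
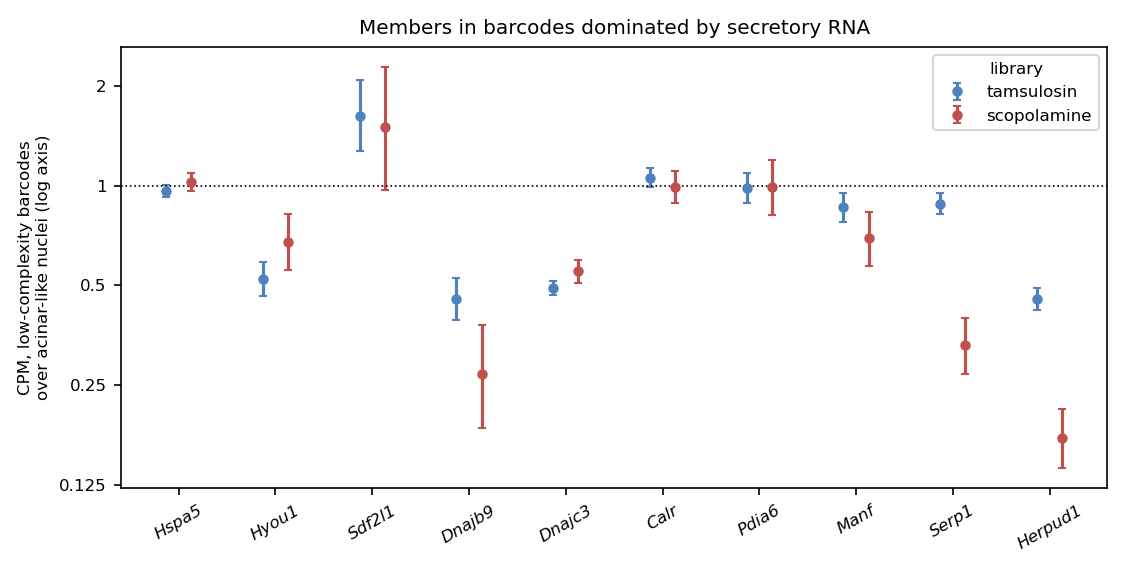
Points give the CPM of each gene in low-complexity barcodes divided by that in acinar-like nuclei of the same library (log axis), tamsulosin in blue and scopolamine in red, with 95% counting intervals; the dotted line marks equal levels. Hspa5, Calr and Pdia6 sit at the line in both libraries, and Herpud1 at 0.45 and 0.17.

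Over 18 profiles (6 classes in 3 libraries) the genes whose log2 CPM ran most like the mean of the 10 members were Esp18 (r = 0.84), Agr2 (0.83), Gm8978 (0.83), Car6 (0.81), Serf2 (0.81), Bglap3 (0.80), Esp6 (0.80) and Ssr4 (0.80), where the median over 5385 genes was -0.16. Agr2 is a disulfide isomerase of secretory cells, and was at 223 CPM in tamsulosin, 150 in scopolamine and 169 in control acinar-like nuclei. Esp18 and Esp6 code for exocrine gland-secreted peptides. These correlations are a description, since profiles of 1 library share its depth and free RNA. Among the members, Dnajb9 followed the mean at r = 0.91, Serp1 at 0.85 and Dnajc3 at 0.83, while Hyou1 (0.39) and Herpud1 (0.08) did not run with the others. Each member is itself part of that mean, so these values cannot be set beside those of the other genes.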

How the data were processed

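The deposited matrices hold raw UMI counts of each gene in each barcode, with lists of gene and barcode names, made with Cell Ranger 5.0.0 on mm10, per the file headers and the submitters' processing notes. The annotation release, the use of introns and strand in counting, and the removal of shallow droplets are not given in the sources used here. The lowest deposited UMI totals per barcode were 1534 (tamsulosin), 967 (scopolamine) and 1492 (control), so free RNA could not be estimated from empty droplets.

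Barcodes with at least 500 UMIs, at least 300 genes and at most 5% mitochondrial UMIs were used. Scrublet (in scanpy 1.11.5) marked under 0.5% of each library, so the highest scores were removed at 0.8% per 1000 barcodes (1215, 804 and 421). The remaining nuclei gave 32 Leiden clusters at resolution 1 from 2000 variable genes, 30 principal components and 15 neighbours, without integration. Clusters were named from marker lists, with thresholds set after the clusters had been seen; clusters under a median of 350 genes at 1000 UMIs were called low complexity. For each class and library the UMIs of all nuclei were added up and scaled to CPM. Relative log2 ratios used a pseudocount of 5 CPM and the class median over genes averaging 20 CPM or more. The computation was tested on simulated counts. With 1 library per group no p-value was computed. The 10 members, the 8 gene lists and the alternatives were chosen with earlier results of these data known. All members are named. Of each list the genes past 1.5-fold in acinar-like nuclei are named, at most 4 by size, but only some of these for tamsulosin against control. Gene overlaps are from GENCODE M21 on GRCm38 and promoters from RefSeq on GRCm38.p6. The software was Python 3.11.15, numpy 2.4.6, scipy 1.17.1, pandas 2.3.3, igraph 0.11.9 and matplotlib 3.10.9. The alternatives numbered 12 planned and 3 added after seeing the data (at least 4000 UMIs, gene lists without subtraction of the class median, and the class of duct-like nuclei under each clustering).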

Additional observations from a re-analysis of the deposited data

How the results depend on the processing

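No paired analysis was possible because each group has 1 library. In acinar-like nuclei the sign of the relative log2 ratio was kept in 114 of 120 values over members and settings for scopolamine against control, 129 of 130 for tamsulosin against scopolamine and 120 of 120 for tamsulosin against control. The exceptions were Hyou1, Dnajc3 and Serp1 in the first comparison and the sparse Sdf2l1 in the second. Several settings, such as the pseudocount and the genes used for the median, reuse the same summed counts, so these values are not independent. Without subtraction of the class median, the members' median for scopolamine against control was 0.020 in place of 0.31. The count of higher members for tamsulosin against scopolamine was 5, and 3 in thinned nuclei, 0 without subtraction, 1 with the median over all genes with a UMI and 1 in clusters with 50 nuclei in both libraries. For tamsulosin against control it was 7, and 4 both without subtraction and with the median over all genes with a UMI. In these settings, and at 4000 UMIs or more (chosen after seeing the data), 1 member was lower in place of 0. The median of that comparison was 0.90, and 0.50 without subtraction, 0.54 with the median over all genes with a UMI and 1.26 with low-complexity barcodes counted as acinar-like. Subtraction and the choice of genes for the median move all genes of a comparison by 1 constant; the cause of the other shifts was not tested. In thinned nuclei Hyou1 for scopolamine against control in fibroblast-like nuclei was 0.50 and Dnajb9 for tamsulosin against control in T or NK-like nuclei was -1.05, both reversed. The cluster setting could not be run for the other acinar-like comparisons, nor the repeated clusterings for duct-like nuclei against control, since 366 to 370 of the 370 control nuclei in duct-like cluster 17 were named acinar-like there (checked after seeing the data), nor 4000 UMIs for T or NK-like nuclei. Members under 20 CPM and classes of few nuclei rest on few UMIs.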
